A study of Mus musculus with 6 samples.

Results

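The genes described here are 46 genes of the cell division cycle, named for their roles in DNA replication (18 S-phase genes) or in mitosis (28 mitotic genes), and measured in mouse whole blood after food restriction. A gene was found through the RefSeq accession of its array probes, and 45 of the 46 had a probe, 60 probes in all among the 41174 probes of the array. No probe was matched to Mki67, the proliferation marker. A probe entered the test if its spot was well above background in one diet or the other on all 4 arrays tested, which left 26 members (12 S-phase and 14 mitotic) among 11498 features.

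The blood came from male C57BL/6J mice aged 9 weeks, drawn from the right ventricle, with 8 animals on a normal diet (control) and 8 given 50% food restriction (FR) of the chow CE-2 for 2 weeks. RNA was pooled by diet: pool 1 held animals 1 to 8 of each diet, pool 2 animals 1 to 4 and pool 3 animals 5 to 8, and the FR and control RNA of each pool went together onto 2 dye-swapped arrays, which makes 6 arrays. The n = 2 pools of every test were pools 2 and 3, which have different animals. Single animals were not measured, so no p-value reflects the spread between animals. A p-value of the main test uses a spread between pools taken in common over features of like brightness. It does not use the SD printed for each gene. By the animal numbers in the labels, pool 1 measured all those animals once more on another slide; whether its RNA came from the same extracts is not given in the sources used here. Of the 43379 probe spots on an array, 37.2% to 62.1% exceeded background clearly in control and 20.4% to 55.6% in FR, and the number of arrays limits the precision.

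A dividing cell switches on the genes for DNA synthesis when E2F transcription factors are released from the retinoblastoma protein at the border of G1 and S phase. The genes for chromosome segregation follow in G2 and M phase, many of them through paired CHR and CCAAT promoter elements that bind the DREAM complex and the factors MYB, FOXM1 and NF-Y. Circulating blood cells hardly divide, but young red cells leaving the marrow still carry transcripts made during their last divisions, and activated white cells can enter the cycle.

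Of the 26 tested members, 6 were higher in FR blood, 6 were lower and 14 did not pass the test. The genes that rose were E2f2 and Uhrf1 of the S-phase group and Ccnb2, Cdca3, Birc5 and Tpx2 of the mitotic group. The genes that fell were Pcna, Mcm4, Cdt1 and Mcm7 of the S-phase group and Nusap1 and Ccna2 of the mitotic group. Each direction thus held 23.1% of the members tested, where 3.74% of all 11498 features passed as higher and 24.5% as lower. The share of members that fell was near the background and the share that rose was above it. Because the members were chosen with results of these data known, these shares are a description and carry no test. The median log2 ratio of FR over control was 0.11 over the members and 0.01 over all features. In either direction 28.3% of all features passed. The test asked with limma whether the mean log2 ratio of both pools differed from 0, at an adjusted p under 0.05 (Benjamini-Hochberg over all features). With 2 pools limma gave all features of like brightness one common variance. When the variance was allowed to differ between genes (prior degrees of freedom taken from 3 pools), a setting chosen after the data had been seen, 3 members were higher (E2f2, Uhrf1 and Ccnb2) and 4 lower (Nusap1, Pcna, Cdt1 and Mcm4), where 1.53% and 15.5% of all features passed. Without pairing FR and control by array (no replicate block), 3 were higher (E2f2, Uhrf1 and Ccnb2) and 1 lower (Nusap1), beside 0.991% and 8.45% of all features. With pool 1 in place of pool 3, 10 members were higher, where 15.0% of all features passed as higher. The pools of that fit share animals and are not independent.

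**Figure D1:**
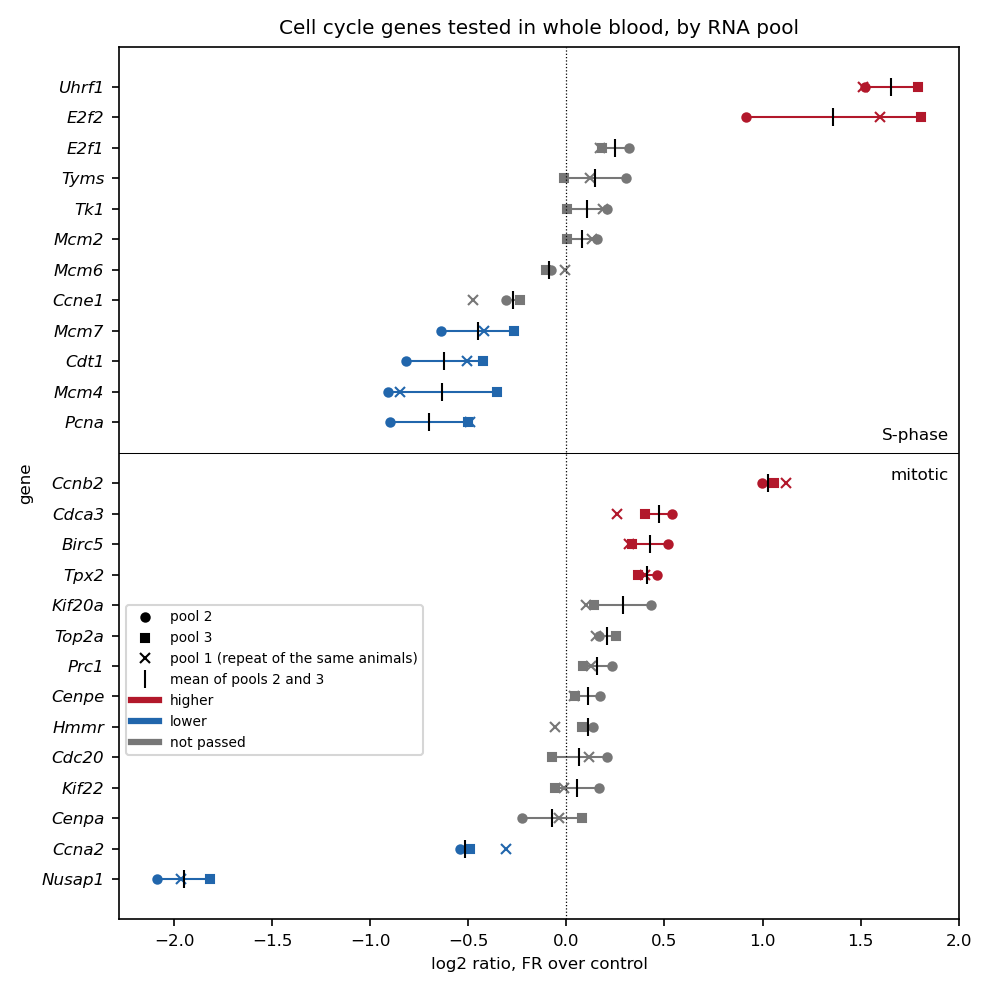
Log2 ratio of FR over control (x axis) for each of the 26 tested members (y axis), S-phase genes above and mitotic genes below the line; circles and squares are pools 2 and 3, crosses pool 1, vertical ticks the mean of pools 2 and 3, and horizontal lines join the values of pools 2 and 3. The means run from -1.95 for Nusap1 to 1.66 for Uhrf1, and red and blue mark the 6 higher and 6 lower members.

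The S-phase and mitotic groups were each mixed in direction. Of the 12 S-phase genes tested, 2 rose and 4 fell, with a median log2 ratio of -0.01 (0.04 in pool 2, -0.06 in pool 3 and 0.06 in pool 1). Of the 14 mitotic genes tested, 4 rose and 2 fell, with a median of 0.13 (0.19 in pool 2, 0.08 in pool 3 and 0.11 in pool 1). As shares, 16.7% of the S-phase and 28.6% of the mitotic genes rose, beside 3.74% of all features. The shares that fell were 33.3% and 14.3%, on either side of the 24.5% of all features. The mitotic median lay above the S-phase median by 0.14 (SD 0.0077 between pools 2 and 3). This SD of 2 values understates the uncertainty: the medians lay closer in pool 1, and the difference ranged from 0.0731 to 0.26 over the other settings. The members were chosen with results of these data known, so the comparison is a description without a test. Loess normalisation places the bulk of the features at a ratio of 0; with median centring instead, the all-feature median was -0.18, the S-phase median -0.20 and the mitotic median -0.09, so the sign of the mitotic median turned while its distance from all features stayed positive. Median centring also left 3 members higher (E2f2, Uhrf1 and Ccnb2) and moved the share of all features that passed to 1.57% higher and 35.6% lower.

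Markers of red cells, white cells and platelets were all measured in the samples labelled whole blood. Whole blood is a mixture, and fewer cells of a type cannot be told apart from less RNA per cell. Most tested markers of B cells, monocytes, platelets and white cells in general fell in FR. Of 9 B cell markers tested 6 fell (median log2 ratio -1.01), of 8 monocyte markers 7 (-1.27) and of 11 platelet markers 8 (-1.09). All 5 markers of white cells in general fell (-2.68), and 4 of 8 T cell markers did (-0.46). Of all features 24.5% fell and 3.74% rose. Of 8 neutrophil markers 3 fell and 1 rose (-0.21). No neutrophil marker passed without the replicate block or with a variance that may differ between genes. Of 20 erythroid and reticulocyte markers, 4 rose and 2 fell, with a median of 0.07. The summed signal of the erythroid markers ranged from 587576 to 985542 in FR and from 566414 to 912394 in control over the 4 arrays, so the ranges overlapped. The summed signal of the B cell markers ranged from 2128 to 2448 in FR against 9508 to 14928 in control, that of the monocyte markers from 4483 to 6263 against 32848 to 56839, that of the T cell markers from 2935 to 3080 against 4109 to 4584, that of the neutrophil markers from 9384 to 11043 against 10775 to 24257, and that of the platelet markers from 37369 to 41607 against 85992 to 101932. The summed signal of the markers of white cells in general ranged from 1413 to 1949 in FR against 7387 to 12469 in control. Markers with a probe that was too dim to be tested included Pax5 and Ebf1 for B cells, Cd4 for T cells, Cx3cr1 for monocytes, Mmp8, Camp, Ngp, Elane and Mpo for neutrophils, and Klf1 and Ermap for erythroid cells. The part of these shifts in cell markers in each result on a cell cycle gene was not tested.

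**Figure D2:**
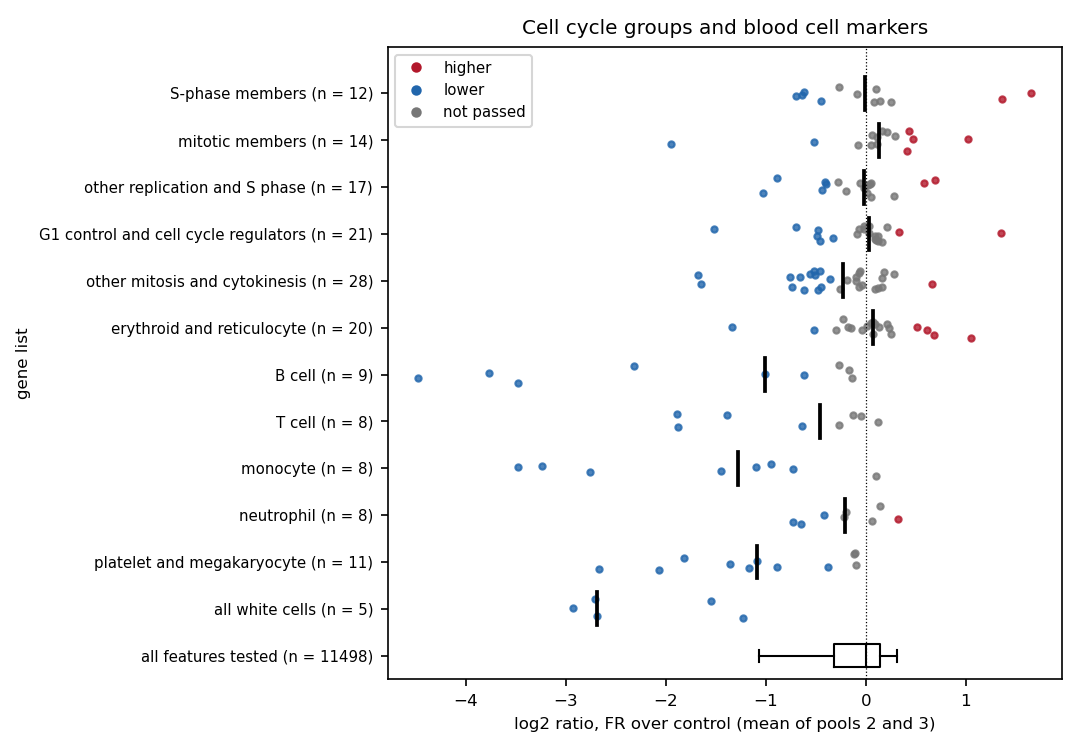
Log2 ratio of FR over control (x axis, mean of pools 2 and 3) of every tested gene in the S-phase and mitotic members, 3 further cell cycle lists and 7 blood cell marker lists (y axis); each point is a gene coloured by its call and each black bar a list median. The box shows the median and quartiles of all 11498 features with whiskers that leave out 5% of the features at either end; the cell cycle lists have medians between -0.22 and 0.13, and the white cell and platelet lists medians between -2.68 and -0.21.

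Levels are given below as normalised log2 signal on the 4 arrays in the order pool 2 with FR in Cy5, pool 2 with FR in Cy3, pool 3 with FR in Cy5 and pool 3 with FR in Cy3. The regulators of S-phase entry were led by E2f2 (RefSeq NM_177733), an activator E2F that is also known in maturing erythroid cells. E2f2 had levels of 14.66, 14.57, 15.08 and 15.05 in FR and of 13.77, 13.64, 13.39 and 13.13 in control. Every FR level of E2f2 was above every control level, and pool 3 showed the larger gap. The log2 ratio was 1.36 (SD 0.63, n = 2 pools; 2.57-fold higher; limma adjusted p = 2.78e-13), made of 0.91 in pool 2 and 1.81 in pool 3, with 1.60 in the repeat of pool 1. E2f1, the related activator that drives S-phase genes in most cells, had a log2 ratio of 0.25 (SD 0.10; limma adjusted p = 0.265), above 0 on 6 of 6 arrays, and did not pass. Ccne1, the cyclin E that activates CDK2 at S-phase entry, did not pass either, and its 2 probes gave ratios of opposite sign, -0.27 and 0.13. The brighter Ccne1 probe was below 0 on 6 of 6 arrays, its FR and control levels did not overlap, and it passed as lower under some other settings, among them median centring (-0.50, limma adjusted p = 0.0115). Ccne2, the other cyclin E, was not above background on any array.

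Replication licensing loads the MCM helicase onto origins before S phase. Of the 5 tested licensing and helicase members, 3 fell, none rose, and the median log2 ratio was -0.45, where 24.5% of all features fell. The 3 that fell entered the test through control alone, and with both diets required to be above background Mcm6, which did not pass, was the only one of the 5 tested. Cdt1 (RefSeq NM_026014), the factor that brings the helicase to origins, had levels of 6.69, 6.78, 6.81 and 6.58 in FR and of 7.45, 7.65, 7.0001 and 7.24 in control. All 4 FR levels of Cdt1 were below all 4 control levels, by the least margin in pool 3. Its log2 ratio was -0.62 (SD 0.28; 1.54-fold lower; limma adjusted p = 4.71e-05). Mcm4 (RefSeq NM_008565), a helicase subunit, had levels of 6.84, 6.62, 6.65 and 6.89 in FR and of 7.69, 7.60, 7.0032 and 7.25 in control. The levels of Mcm4 did not overlap between the diets, and the fall was larger in pool 2 (-0.91) than in pool 3 (-0.36). Over both pools the ratio of Mcm4 was -0.63 (SD 0.39; 1.55-fold lower; limma adjusted p = 4.38e-05). With Agilent processed signals, which carry another background correction, the ratios were -1.65 for Cdt1 and -2.199 for Mcm4, so the size of these falls depends on the processing.

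Mcm7 (RefSeq NM_008568), another helicase subunit, had levels of 7.04, 7.06, 7.14 and 6.98 in FR and of 7.69, 7.69, 7.31 and 7.33 in control, again without overlap. The log2 ratio of Mcm7 was -0.45 (SD 0.26; 1.37-fold lower; limma adjusted p = 0.0108). With Agilent processed signals the ratio was -0.74 and the adjusted p 0.0718. With pool 1 in place of pool 2 the ratio of Mcm7 was -0.34 and the limma adjusted p 0.0521, so it did not pass. Pool 1 also holds the animals of pool 2, so this swap does not leave them out. In FR, Cdt1 and Mcm4 were well above background on 2 of the 4 arrays and Mcm7 on 3, while in control all were so on 4, so the FR signals of these genes lay close to the background. Of the other helicase subunits tested, neither passed: Mcm2 had a ratio of 0.08 and Mcm6, well above background on all 4 arrays in both diets, a ratio of -0.09 (SD 0.02; limma adjusted p = 0.710). Mcm3, Mcm5 and the loading factor Cdc6 did not reach the signal needed for the test.

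At the replication fork and in the copying of DNA methylation, 1 gene fell and 1 rose. Pcna (RefSeq NM_011045), the sliding clamp of the DNA polymerases, had levels of 7.78, 7.87, 7.94 and 7.92 in FR and of 8.67, 8.78, 8.31 and 8.56 in control. Every FR level of Pcna was below every control level. Its log2 ratio was -0.70 (SD 0.28, 1.63-fold lower, limma adjusted p = 4.32e-05), the largest fall among the S-phase members tested as processed here. With Agilent processed signals the ratio of Pcna was -0.93, and Mcm4 (-2.199) and Cdt1 (-1.65) fell more. Uhrf1 (RefSeq NM_010931), which brings the maintenance methyltransferase Dnmt1 to newly copied DNA, went the other way. The levels of Uhrf1 were 8.27, 7.83, 8.19 and 8.24 in FR and 6.55, 6.51, 6.50 and 6.35 in control. The FR levels of Uhrf1 stood well apart from the control levels, and in control the spot was well above background on 2 of the 4 arrays. The ratio was 1.66 (SD 0.19; 3.15-fold higher; limma adjusted p = 4.79e-26), with 1.51 in the repeat of pool 1. A second Uhrf1 probe had a ratio of 0.88 (limma adjusted p = 9.79e-12 in a fit over 13258 probes), the same direction with a smaller size. In control this second probe was well above background on 1 of the 4 arrays, so both Uhrf1 probes entered the test through FR alone. With Agilent processed signals the ratio of the first probe was 4.02.

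The nucleotide synthesis genes did not pass: Tk1, a thymidine kinase, had a log2 ratio of 0.11 and Tyms, thymidylate synthase, one of 0.15. The ratios of these genes in pool 3 were 0.00 for Tk1 and -0.01 for Tyms. Rrm1 and Rrm2, the subunits of ribonucleotide reductase, were not tested because their signals were too dim.

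**Figure D3:**
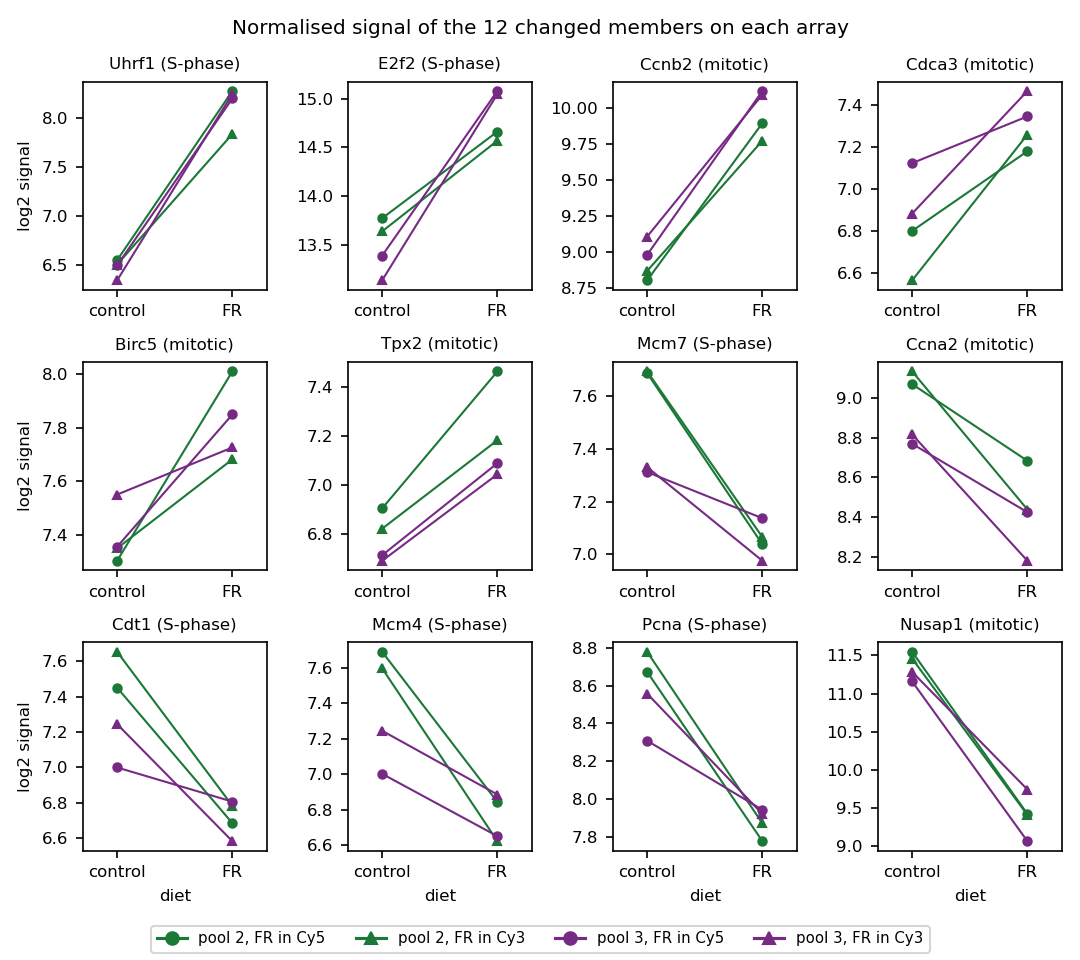
Normalised log2 signal (y axis, a separate range for each gene) in control and FR (x axis) for the 12 members that passed the test; each line joins the 2 diets on 1 array, green for pool 2 and purple for pool 3, circles with FR in Cy5 and triangles with FR in Cy3. All 4 lines rise for Uhrf1, E2f2, Ccnb2, Cdca3, Birc5 and Tpx2 and fall for the other 6 genes, and the FR and control points do not overlap in any panel.

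Among the mitotic cyclins, Ccnb2 and Ccna2 went in opposite directions. Ccnb2 (RefSeq NM_007630), a B-type cyclin of CDK1, had levels of 9.89, 9.77, 10.12 and 10.09 in FR and of 8.81, 8.87, 8.98 and 9.11 in control. All FR levels of Ccnb2 were above all control levels, with close agreement between pools. Its log2 ratio was 1.03 (SD 0.04; 2.04-fold higher; limma adjusted p = 4.39e-11). Ccna2 (RefSeq NM_009828), the cyclin A that acts in S phase and G2, had levels of 8.68, 8.44, 8.42 and 8.18 in FR and of 9.07, 9.13, 8.77 and 8.82 in control. The FR levels of Ccna2 were lower on each array and did not overlap with control. The ratio of Ccna2 was -0.52 (SD 0.04; 1.43-fold lower; limma adjusted p = 0.00308), and with a variance that may differ between genes its adjusted p was 0.0509. Ccnb1, the other B-type cyclin, and the kinases Aurka, Plk1 and Melk were above background on none of the 4 arrays of pools 2 and 3, and Cdk1, the kinase of these cyclins, on 2 of 4 at most.

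Nusap1 (RefSeq NM_133851), which binds and bundles spindle microtubules, had the largest change of any member tested as processed here. With Agilent processed signals the ratio of Nusap1 was -2.13, and Uhrf1 (4.02) and Mcm4 (-2.199) changed more. The levels of Nusap1 were 9.42, 9.41, 9.06 and 9.74 in FR and 11.55, 11.46, 11.16 and 11.28 in control. The diets were widely separated on all 4 arrays. Its log2 ratio was -1.95 (SD 0.19; 3.87-fold lower; limma adjusted p = 9.74e-39), with -1.97 in the repeat of pool 1. The other spindle genes tested among the members did not follow it. Tpx2 (RefSeq NM_028109), the activator of Aurora A on the spindle, had levels of 7.46, 7.18, 7.09 and 7.04 in FR and of 6.90, 6.82, 6.71 and 6.69 in control. Each FR level of Tpx2 was above each control level, by a small margin. The ratio of Tpx2 was 0.41 (SD 0.07; 1.33-fold higher; limma adjusted p = 0.0102). The motors and microtubule proteins Kif20a, Kif22, Prc1 and Hmmr had ratios from 0.05 to 0.29 and did not pass.

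Birc5 (RefSeq NM_001012273), the survivin subunit of the chromosomal passenger complex, had levels of 8.01, 7.68, 7.85 and 7.73 in FR and of 7.30, 7.35, 7.35 and 7.55 in control. The diets did not overlap, and the gap was least on the pool 3 array with FR in Cy3. The log2 ratio of Birc5 was 0.43 (SD 0.13; 1.35-fold higher; limma adjusted p = 0.0251). Cdca3 (RefSeq NM_013538), a trigger of mitotic entry, had levels of 7.18, 7.26, 7.34 and 7.47 in FR and of 6.80, 6.56, 7.12 and 6.88 in control. The lowest FR level of Cdca3 was only just above the highest control level. Its ratio was 0.47 (SD 0.09; 1.39-fold higher; limma adjusted p = 0.00427), and a second probe, well above background in control on 2 of the 4 arrays, gave 1.01. With pool 1 in place of pool 2 the ratio of the first Cdca3 probe was 0.33 and the limma adjusted p 0.0559, so it did not pass. Pool 1 also holds the animals of pool 2, so this swap does not leave them out. With Agilent processed signals the ratios were 0.86 for Birc5, 1.09 for Tpx2 and 1.12 for Cdca3. The small rises of Birc5, Tpx2 and Cdca3 were the ones lost under median centring (limma adjusted p = 0.388, 0.186 and 0.118) and with a variance that may differ between genes (0.109, 0.0746 and 0.0591).

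The other tested mitotic members did not pass. The log2 ratios were 0.07 for Cdc20, the activator of the anaphase-promoting complex, -0.07 for Cenpa, the histone H3 variant of the centromere, 0.11 for the kinetochore motor Cenpe and 0.21 for the DNA topoisomerase Top2a. Top2a was above 0 on 6 of 6 arrays, while Cdc20 was above 0 on 3 of 6. The spindle checkpoint genes Bub1, Bub1b and Mad2l1 and the kinase Aurkb were above background on none of these 4 arrays. Cdca8 of the passenger complex, the kinetochore protein Nuf2 and the spindle motors Kif11 and Kif2c were so on some arrays but too few to be tested. In all, 19 members with a probe were not tested, 6 S-phase and 13 mitotic, of which 10 were above background on no array of pools 2 and 3 in either diet and 9 on some. The ratios of these dim probes lay between -0.18 and 0.21.

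All 12 members that passed had the same direction on 6 of 6 arrays, the repeat slide of pool 1 included. The calls came from 4 of these arrays and pool 1 measured the same animals again, so this agreement is no separate support. E2f1, Kif20a, Top2a and the brighter Ccne1 probe also kept 1 direction on 6 of 6 arrays without passing. The share of all features that did so was not counted. The FR and control levels did not overlap on the 4 arrays of pools 2 and 3 for 6 members above control and 7 below (the 6 that fell and Ccne1), beside 5.11% and 19.6% of all features. A filter that needs signal in only 1 diet lets a gene in through the diet where it is high. With both diets required to be well above background, 17 members remained, 5 of them higher and 3 lower, where 6.17% and 18.6% of all features passed. E2f2, Ccnb2 and Nusap1 passed in all 18 planned settings, and Uhrf1 in each of the planned settings in which it was tested.

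**Figure D4:**
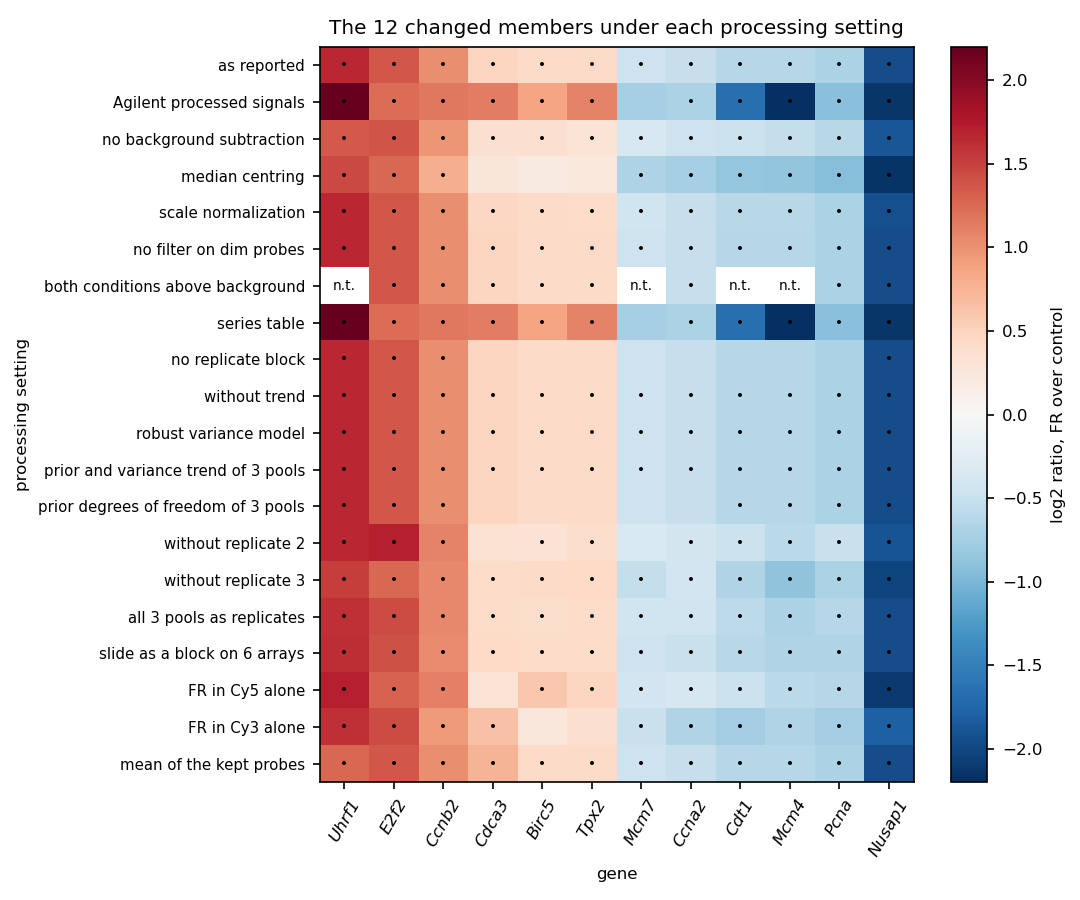
Log2 ratio of FR over control (colour) of the 12 members that passed (x axis) as reported and under 19 other processing settings (y axis); a dot marks an adjusted p under 0.05 and n.t. a gene not tested; values past the ends of the scale take its end colour. The 4 columns Uhrf1, E2f2, Ccnb2 and Nusap1 carry a dot wherever they were tested, and no colour changes from red to blue within a column.

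Promoter elements of the 2 phases were read from RefSeq (assembly GRCm38.p6), which listed 44 promoters for 40 of the 46 members, in the 250 bases before each start. On both strands, the E2F-type motif (TTTCGCGC, TTTGGCGC, TTTCCCGC or TTTGCCGC) was in 26.3% of 19 S-phase promoters, 4% of 25 mitotic promoters and 1.86% of all 32851 promoters. The CHR element (TTTGAA or TTCGAA) was in 15.8% of S-phase, 40% of mitotic and 17.1% of all promoters, and the CCAAT box in 68.4%, 76% and 33.8%. Overlapping matches were each counted. The 4 promoters printed below were picked to set members that moved beside members that did not pass, and run 5′ to 3′ on the gene's strand with the motif matches in capitals. They are Ccnb2 (chr9:70421555-70421804, minus strand), which rose, Cdc20 (chr4:118437344-118437593, minus strand), which did not pass, Uhrf1 (chr17:56303087-56303336, plus strand), which rose, and Mcm6 (chr1:128359706-128359955, minus strand), which did not pass.
Ccnb2: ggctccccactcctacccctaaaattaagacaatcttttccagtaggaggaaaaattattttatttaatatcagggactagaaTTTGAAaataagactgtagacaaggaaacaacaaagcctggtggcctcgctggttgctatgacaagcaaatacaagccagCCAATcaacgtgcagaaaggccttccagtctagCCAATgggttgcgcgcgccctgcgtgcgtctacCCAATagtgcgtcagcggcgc
Cdc20: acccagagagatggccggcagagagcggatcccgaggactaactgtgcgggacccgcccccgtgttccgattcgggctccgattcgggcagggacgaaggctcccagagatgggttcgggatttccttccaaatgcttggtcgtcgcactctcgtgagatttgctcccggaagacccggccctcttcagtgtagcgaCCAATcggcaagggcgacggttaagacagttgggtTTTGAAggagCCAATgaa
Uhrf1: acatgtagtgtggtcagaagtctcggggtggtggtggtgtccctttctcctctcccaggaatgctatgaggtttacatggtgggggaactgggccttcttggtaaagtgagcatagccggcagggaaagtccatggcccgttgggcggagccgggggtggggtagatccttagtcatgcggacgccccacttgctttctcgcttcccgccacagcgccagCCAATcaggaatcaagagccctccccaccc
Mcm6: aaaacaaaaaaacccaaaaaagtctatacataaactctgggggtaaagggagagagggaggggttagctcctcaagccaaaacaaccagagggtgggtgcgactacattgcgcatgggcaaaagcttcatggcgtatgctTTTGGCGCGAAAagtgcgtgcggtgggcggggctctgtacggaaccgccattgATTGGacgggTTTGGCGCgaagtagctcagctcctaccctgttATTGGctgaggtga
Ccnb2 held 1 CHR element and 3 CCAAT boxes, and Cdc20, with a ratio of 0.07, held 1 CHR element and 2 CCAAT boxes. By call, CHR and CCAAT occurred together in 28.6% of 7 promoters of higher members and 20% of 5 promoters of lower members. The share was 35.7% of 14 promoters of members that did not pass and 6.02% of all promoters. Whether these elements bear on the ratios was not tested. Mcm6, with a ratio of -0.09, held 3 E2F-type motifs and 2 CCAAT boxes, whereas Uhrf1, with a ratio of 1.66, held 1 CCAAT box and neither of the others in the window printed. RefSeq lists a second start for Uhrf1, not printed because its window lies within the gene, and that window held 1 E2F-type motif and 2 CCAAT boxes. A match is a run of letters and not a measured binding site.

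Of 173 further cell cycle genes outside the 46, 66 were tested, 5 rose and 24 fell, and the median log2 ratio was -0.06. The shares, 7.58% higher and 36.4% lower, compare with the 3.74% and 24.5% of all features. All 66 were well above background on the 4 control arrays, but 41 on the 4 FR arrays (11370 and 7175 of all features). Some of the falls thus entered the test through control alone. Other mitosis and cytokinesis genes had the lowest median, -0.22, with 1 of 28 higher and 13 lower, against 0.13 for the mitotic members. Other replication genes had a median of -0.02 (2 of 17 higher, 5 lower), and G1 control genes one of 0.03 (2 of 21 higher, 6 lower).

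The rises among these genes included partners of the members. Dnmt1, the methyltransferase that Uhrf1 recruits, rose by 0.70 (SD 0.32; limma adjusted p = 4.47e-05), and Asf1b, a histone chaperone of replication, by 0.58 (SD 0.01; limma adjusted p = 0.000885). Cks1b, a small subunit of cyclin-dependent kinases, rose by 0.66, and Btg3, an antiproliferative gene, by 1.35 (SD 0.41; limma adjusted p = 1.56e-18). Foxm1, the factor that acts on CHR promoters, passed narrowly at 0.33 (limma adjusted p = 0.0477), with ratios of 0.06 and 0.09 on the arrays with FR in Cy5 and of 0.52 and 0.65 on those with FR in Cy3, and did not pass with FR in Cy5 alone.

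The largest falls were those of Pttg1, known as securin (-1.68), and Ran, a GTPase of nuclear transport and spindle assembly (-1.65). Next came Btg1, an antiproliferative gene (-1.52), Dut, which removes dUTP (-1.03), and Rfc2, a subunit of the loader of Pcna (-0.89). Btg1 and Btg3 thus passed in opposite directions, while Btg2, with a ratio of -0.07, did not pass. Among the G1 regulators, Rb1, the retinoblastoma protein that holds back E2F, had a ratio of -0.70 (limma adjusted p = 1.88e-05), Ccnd2, a D-type cyclin, one of -0.49, Tfdp2, a dimer partner of E2F, one of -0.48 and Cdkn1b, the CDK inhibitor p27, one of -0.32. In FR, Cdkn1b was well above background on 1 of the 4 arrays and Rfc2 on 3. Ccnd1, Ccnd3, Cdk4, Cdk6, Myc and Mybl2 had ratios from -0.02 to 0.21 and did not pass, and Cdk2, Cdkn1a, Rbl2 and E2f4 were not tested.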

How the data were processed

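The 46 members and the lists of other cell cycle genes and markers were chosen with earlier results of these data known. RNA was purified on columns, then linearly amplified and labelled, per the labels' protocols. The submitters' processing notes name Agilent Feature Extraction 11.0.1.1, and the deposited files from the scanner give each spot's intensity (median, background and processed signal). A deposited table of the series gives log10 values, which equalled log10 red over green processed signal within 1e-04 for 100% of spots, not centred and not turned for the dye swap, with column medians, for FR in Cy5 and then in Cy3, of -0.00938 and -0.0277 (pool 1), 0.0441 and 0.00763 (pool 2) and 0.052 and -0.0221 (pool 3).

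Median signals were background-corrected (normexp, offset 50) and loess-normalised within arrays, giving control spots no weight. Control and outlier-marked spots were then dropped, spots of a probe averaged, log2 ratios turned to FR over control by the labelled dyes, and the 2 arrays of a pool averaged. No spot was saturated. Levels per diet were log2 signals after loess and Aquantile. Each gene was represented by its brightest kept probe; 13 members had several probes, and of the 41174 probes 23374 were named through RefSeq (GRCm38.p6).

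Ratios of pools 2 and 3 were tested against 0 in R 4.3.3 (limma 3.58.1; lmFit and trended eBayes; two-sided; Benjamini-Hochberg over 11498 features). FR and control of a pool share an array, so the pool number pairs them by hybridisation, not by animal. On simulated ratios with 200 changed features among the 11498 of this comparison, the test recovered 50.7% of log2 changes of 0.5, 99.8% of 1 and 100% of larger ones, with 3.26% of calls false; errors were drawn with the variance the test assumes. Every member that passed is named with its arrays. Of other cell cycle genes, the text names the 5 largest rises and the 5 largest falls that passed with one sign in pools 1, 2 and 3, and 18 fixed regulators. The alternatives were 18 settings of background, normalisation, filter, variance model, pools and dyes, and 1 setting added after the data had been seen.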

Additional observations from a re-analysis of the deposited data

How the results depend on the processing

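None of the 12 members that passed as reported turned its sign in another setting. Of the others, Tk1, Tyms, Cenpe and Prc1 passed as higher in 1 or 2 settings that use pool 1 and had ratios from -0.12 to -0.06, not passed, under median centring. With 6 members higher and 6 lower as reported, the counts stayed within 1.5 times under most settings. Median centring left 3 higher, with S-phase and mitotic medians of -0.20 and -0.09, 0.11 apart. Requiring signal in both diets left 3 lower, since fewer members were tested, with medians 0.13 apart. With no replicate block (FR and control levels compared without pairing by array), 3 were higher (E2f2, Uhrf1 and Ccnb2) and 1 lower (Nusap1), where 0.991% and 8.45% of all features passed; adjusted p-values of the 8 lost ranged from 0.0873 for Cdt1 to 0.347 for Birc5. Letting the variance differ between genes, with prior degrees of freedom taken from 3 pools (added after the data had been seen), left 3 higher. With pool 1 in place of pool 2 or 3, between 5 and 10 were higher. The mitotic median then exceeded the S-phase median by 0.0731 to 0.11. Pool 1 holds the animals of both other pools, so these swaps leave out no animal and the pools fitted are not independent. The 10 higher were those without pool 3, where 15.0% of all features passed as higher, against 4.13% without pool 2. The slide as a block on 6 arrays gave 13 higher, where 30.8% passed, with medians 0.12 apart. That setting counts dye-swapped arrays of the same RNA, and the repeat in pool 1, as further replicates, which they are not. Taking all 3 pools as replicates, which also counts the same animals again, put the medians 0.10 apart. The mean of the kept probes put them 0.13 apart. Agilent processed signals and the series table each gave a mitotic median of 0.24, which was 0.26 above the S-phase median, and ended the call on Mcm7 (-0.74, adjusted p 0.0718). FR in Cy5 alone gave an S-phase median of -0.0778 and a difference of 0.22, and FR in Cy3 alone a difference of 0.19. The cause of these shifts was not tested. FR in Cy3 alone ended the calls on Birc5 (adjusted p 0.334) and Tpx2 (0.106), and FR in Cy5 alone that on Cdca3 (0.076). The other cell cycle genes ranged from 1 to 15 higher and from 5 to 30 lower over all settings. Over the same settings, 0.991% to 30.8% of all features passed as higher and 8.45% to 38.7% as lower. Of those named, Btg3, Pttg1, Ran, Btg1 and Dut passed in all 19 settings run for them, Ccnd2 in 16, Tfdp2 in 15 and Foxm1 in 12 of 19, and Cdkn1b in 13 of 18, not without pool 2. Sizes reached 1.44 for Dnmt1, 1.77 for Cks1b, 1.22 for Asf1b, 0.86 for Foxm1, -1.65 for Rfc2 and -1.31 for Cdkn1b. Signal near the background limits Cdt1, Mcm4 and Mcm7 in FR and Uhrf1 in control.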
